A study of Mus musculus with 7 samples.

Results

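The genes described here are 33 genes of cell division, which encode the proteins that carry a cell into mitosis, build its spindle, hold and separate its chromosomes and divide it. They are a list of standard mitotic genes, named without a threshold on any measured value but with earlier results of these data known, among them the low level of 1 glioma. All 33 were found among the 17422 genes measured, and none was at 0 in any library. RNA was sequenced from 6 mouse high-grade gliomas and 1 neural progenitor culture, and the values are log2 CPM, a gene's reads relative to the size of its library, given below as CPM or as differences of log2 CPM.

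Neural precursors for every group came from Balb/c embryos at embryonic day 14 and grew on Matrigel with human bFGF and EGF at 10 ng/ml. For the 3 gliomas labelled PDGF-B, wild type precursors received retroviral vectors for PDGF-B, a growth factor that activates PDGF receptors, and for DsRed, a red fluorescent protein. For the 3 gliomas labelled EGFRvIII, precursors of genotype Ink/Arf -/- received vectors for EGFRvIII, a truncated and constantly active EGF receptor, and for DsRed. After 10 days, 20000 transduced cells were placed in the brain of adult BALB/c hosts, and tumours were taken at the first neurological signs. Tumour cells were sorted for DsRed before RNA extraction. The 1 culture library came from wild type progenitors that carried the PDGF-B and DsRed vectors, were sorted the same way and were never grafted. Oncogene and Ink/Arf genotype change together between the glioma groups, so their parts in any difference cannot be told apart. The gliomas are described as independent tumours, 3 per label, and the culture has no replicate.

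The labels did not match the levels of the driver genes. Egfr stood at 4952, 5109 and 3594 CPM under the PDGF-B label and at 41.2, 26.9 and 25.6 CPM under the EGFRvIII label, and the culture had 282 CPM. Pdgfb stood at 1.95, 2.97 and 4.88 CPM under the PDGF-B label, while the gliomas labelled EGFRvIII had 386, 284 and 277 CPM and the culture 245 CPM. Cdkn2a, the gene of the Ink4a and Arf proteins, stood at 3.52, 2.94 and 4.99 CPM under the PDGF-B label, at 22.7, 26.1 and 11.1 CPM under the EGFRvIII label and at 10.7 CPM in the culture. Each of these goes against the label, so the libraries are named throughout by what they are labelled, and no direction below should be read as an effect of either oncogene. Within each group, values are listed in the order of replicates 1, 2 and 3.

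Between 32513579 and 39062409 reads per library were recovered from the deposited values, and mitochondrial genes took from 4.2% (PDGF-B replicate 2) to 6.137% of the CPM of a glioma and 9.53% in the culture. Melk in PDGF-B replicate 2 rested on the fewest reads of any mitotic gene in any library, 65, equal to 1.97 CPM with an exact 95% Poisson interval of 1.52 to 2.51, which covers counting error only. Markers of microglia were measured in the sorted gliomas. Summed over 20 microglia and macrophage genes, the level was 616, 843 and 2486 CPM under the PDGF-B label, 9407, 19937 and 8913 CPM under the EGFRvIII label and 23.0 CPM in the culture, where 4 of the 20 were at 0. The 10 oligodendrocyte precursor markers summed to between 8791 and 18993 CPM in gliomas and to 5126 CPM in the culture library.

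Entry into mitosis is driven by CDK1 bound to cyclin A or cyclin B, and it is reinforced by the Polo and Aurora kinases. The spindle checkpoint holds back the anaphase-promoting complex (APC/C) until every kinetochore is attached to microtubules, after which CDC20 activates the complex and cyclin B and the cohesin guard are destroyed. Transcripts of most of these genes build up late in the cell cycle and fall again as cells divide, so in a bulk RNA sample their level is widely used as a sign of how many cells are cycling. Many of their promoters carry a cell cycle homology region (CHR), read by the MuvB complex together with B-MYB and FOXM1, and CCAAT boxes bound by NF-Y.

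The promoters of the group share these short motifs, which the choice of genes did not use. RefSeq start sites (GRCm38.p6) gave a window from 250 bases before to 50 bases after the start for 27 of the 33 genes, with no window for Aurkb, Ccna2, Foxm1, Kif20a, Pbk and Tpx2. The letters TTTGAA, the core of a CHR, or their reverse complement TTCAAA, stood in the windows of 20 of 27 mitotic genes (74.1%) and in 20.2% of the 27025 genes with a window. Within 50 bases of the start the shares were 66.7% and 5.72%. CCAAT or its reverse complement ATTGG, the core of the NF-Y box, stood in 22 of 27 (81.5%) against 41.1% of all genes. Both motifs stood in 19 of the 27, against 7.97% of all genes, and neither in Birc5, Mad2l1, Melk and Nusap1.

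Stretches from 120 bases before the start, 140 bases in all, show how the motifs are laid out, in the direction of transcription with the CHR core and CCAAT letters of either strand in capitals. The genes were picked after their motifs were seen. Cdc20, at chr4:118437324-118437463 (minus strand), holds TTTGAA between CCAAT boxes, and Ccnb2, at chr9:70421535-70421674 (minus strand), has 3 CCAAT boxes in a row ahead of it.
Cdc20: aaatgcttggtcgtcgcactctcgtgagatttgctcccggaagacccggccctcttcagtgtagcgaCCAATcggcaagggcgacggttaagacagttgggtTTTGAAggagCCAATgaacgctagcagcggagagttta
Ccnb2: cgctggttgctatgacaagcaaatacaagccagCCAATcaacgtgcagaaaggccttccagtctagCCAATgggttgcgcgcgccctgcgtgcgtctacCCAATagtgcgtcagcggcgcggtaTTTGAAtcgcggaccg

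Ttk, at chr9:83834569-83834708 (plus strand), Kif11, at chr19:37376262-37376401 (plus strand), and Top2a, at chr11:99024170-99024309 (minus strand), hold the CHR core as TTCAAA, the same motif on the opposite strand.
Ttk: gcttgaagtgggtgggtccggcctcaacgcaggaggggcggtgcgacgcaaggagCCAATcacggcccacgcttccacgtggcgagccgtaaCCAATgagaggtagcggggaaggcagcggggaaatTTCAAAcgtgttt
Kif11: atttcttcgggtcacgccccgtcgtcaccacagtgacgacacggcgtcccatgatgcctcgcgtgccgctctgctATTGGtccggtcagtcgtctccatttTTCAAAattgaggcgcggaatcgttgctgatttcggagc
Top2a: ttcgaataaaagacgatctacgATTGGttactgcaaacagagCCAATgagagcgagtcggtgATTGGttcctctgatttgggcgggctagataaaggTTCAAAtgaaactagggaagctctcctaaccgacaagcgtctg

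Bub1, at chr2:127831840-127831979 (minus strand), shows a mitotic promoter with CCAAT letters and without TTTGAA or TTCAAA. Variants of the CHR core other than TTTAAA were not searched. Anapc5, at chr5:122821323-122821462 (minus strand), encodes a subunit of the APC/C and is not a member of the group. Like the Bub1 stretch, the Anapc5 stretch holds CCAAT letters and no TTTGAA or TTCAAA. The level of Anapc5 ranged from 163 to 212 CPM over the 6 gliomas, and no link between promoter letters and level was tested.
Bub1: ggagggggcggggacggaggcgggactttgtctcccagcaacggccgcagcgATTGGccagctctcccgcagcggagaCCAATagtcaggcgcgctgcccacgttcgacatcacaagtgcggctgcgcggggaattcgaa
Anapc5: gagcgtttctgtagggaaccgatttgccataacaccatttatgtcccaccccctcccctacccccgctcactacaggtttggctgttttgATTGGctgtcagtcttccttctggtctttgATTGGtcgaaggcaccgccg

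Among 16 APC/C genes with a window, TTTGAA or TTCAAA stood in 3 (18.8%) and CCAAT or ATTGG in 6 (37.5%). TTTAAA, a variant of the CHR core, stood in 33.3% of the mitotic windows against 14.9% of all. GGGCGG or its complement CCGCCC, also searched, stood in 85.2% against 38.2%. These matches describe the letters in the windows and are not evidence of a bound site. In the glioma labelled PDGF-B replicate 2 (described below), TTTGAA or TTCAAA did not sort the genes by how low they were. The median difference from the other 2 gliomas of that label was -2.71 on the log2 scale for the 20 genes with these letters. It was -2.62 for the 7 without them, of which Birc5, Ccnb1 and Cenpe held the variant TTTAAA.

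**Figure D1:**
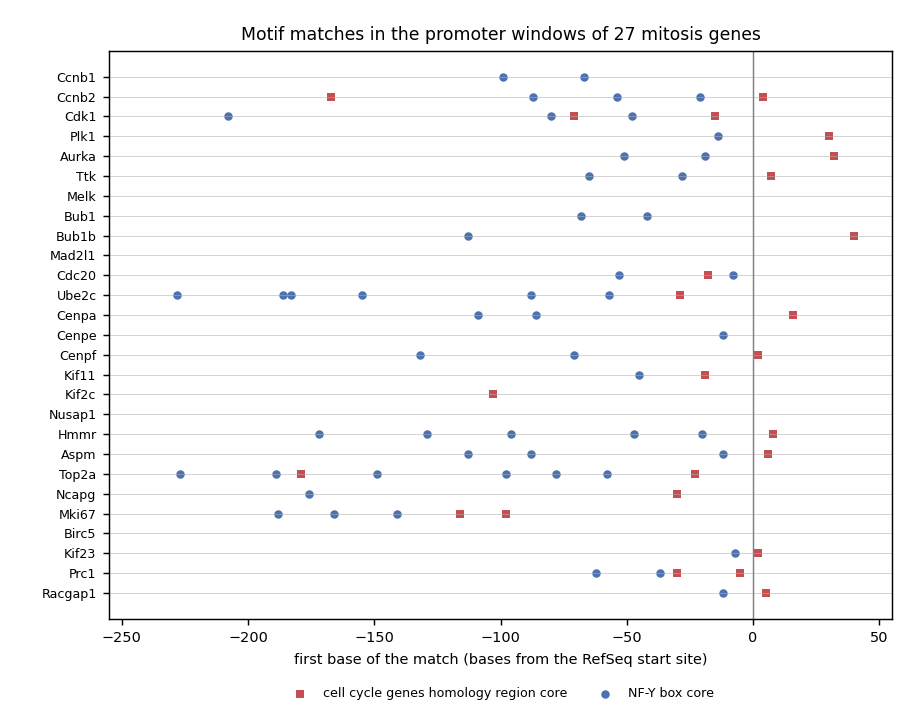
Positions of the CHR core and NF-Y box core in the promoter windows of the mitotic genes that have one, with distance from the transcription start in bases on the x axis and 1 row per gene. Of the 27 genes, 18 have the CHR core within 50 bases of the start and 14 have the NF-Y box core there.

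A pair of patterns held for all 33 genes: the culture was the highest of the 7 libraries, and PDGF-B replicate 2 was the lowest of the 6 gliomas. The culture lay above all gliomas for 24.0% of all 17422 genes, and PDGF-B replicate 2 was the lowest glioma for 20.0%. Median levels over the 33 genes were 51.4, 6.85 and 45.9 CPM under the PDGF-B label, 34.9, 35.4 and 44.2 CPM under the EGFRvIII label and 118 CPM in the culture. Together the 33 genes took 0.286%, 0.0411% and 0.283% of all CPM under the PDGF-B label, 0.211%, 0.156% and 0.269% under the EGFRvIII label and 0.632% in the culture. In bulk RNA, a smaller share of dividing cells and less of each transcript per dividing cell cannot be told apart.

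**Figure D2:**
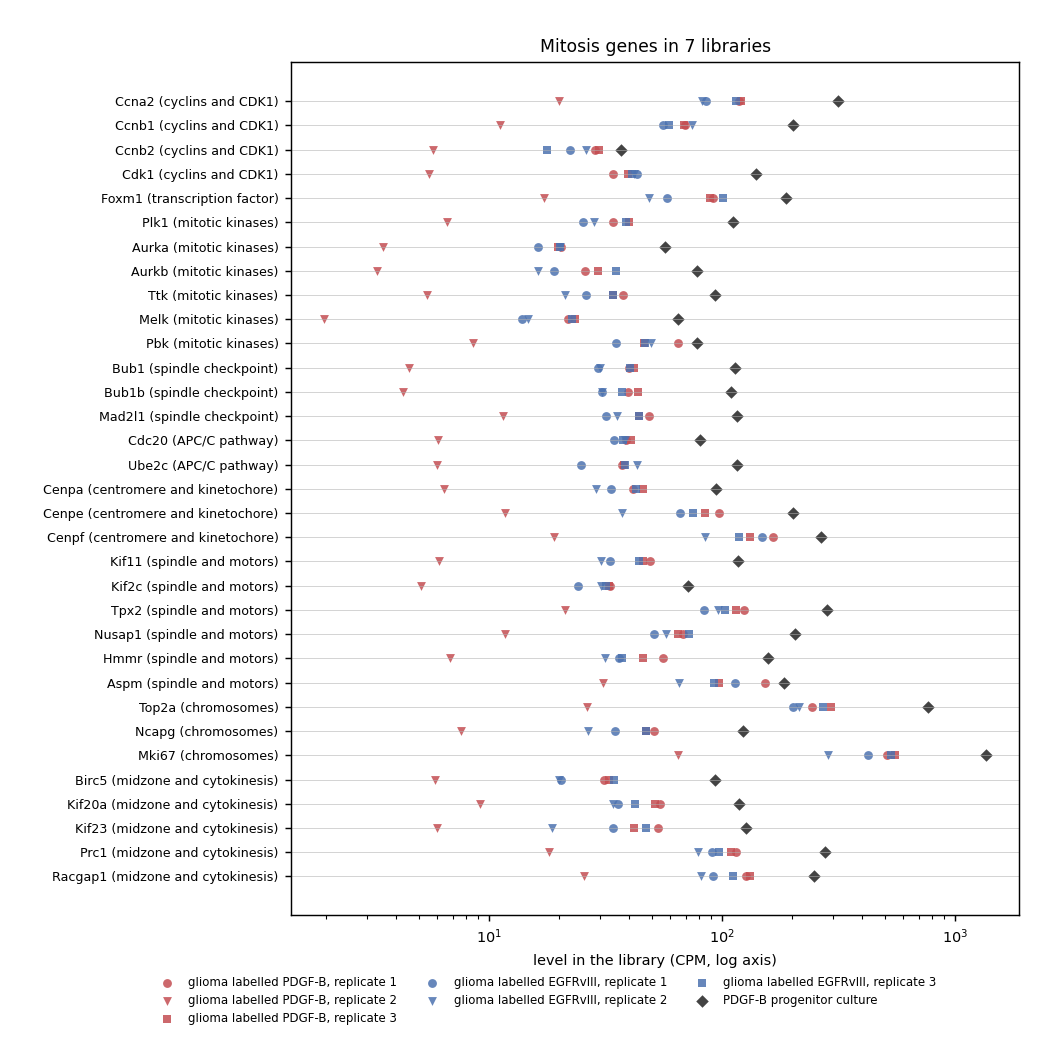
Level of each of the 33 mitotic genes (CPM, log axis) in 7 libraries, grouped by role, with 1 point per library. The glioma labelled PDGF-B replicate 2 is the leftmost point and the culture the rightmost point in every row.

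The cyclins and CDK1 set the timing of mitotic entry. Ccnb1, the main mitotic cyclin, stood at 69.3, 11.2 and 69.0 CPM under the PDGF-B label, at 56.0, 74.6 and 59.6 CPM under the EGFRvIII label and at 202 CPM in the culture. The lowest other glioma was 5.01 times PDGF-B replicate 2, the culture was 2.71 times the highest glioma, and the other 5 gliomas overlapped across labels. Cdk1, the catalytic partner, stood at 34.0, 5.55 and 39.4 CPM, then at 43.4, 41.9 and 41.1 CPM, with 139.8 CPM in the culture. On the deposited scaling it had the most even level of any of these genes among the gliomas labelled EGFRvIII, where the highest was 1.06 times the lowest, and it was the only 1 of the 33 whose glioma groups did not overlap. Ccnb2, the second B-type cyclin, stood at 28.5, 5.79 and 29.6 CPM, then at 22.4, 26.1 and 17.7 CPM. The culture, at 36.8 CPM, was 1.24 times the highest glioma for Ccnb2. Ccna2, the cyclin of S phase and early mitosis, ranged from 20.0 CPM in PDGF-B replicate 2 to 120.3 CPM in PDGF-B replicate 3 and reached 315 CPM in the culture.

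Per kilobase of exon, the balance of the B cyclins differed between the libraries. The ratio of Ccnb1 to Ccnb2, each as CPM per kilobase, was 0.882, 0.701 and 0.845 under the PDGF-B label, 0.908, 1.04 and 1.22 under the EGFRvIII label and 1.99 in the culture. The groups of gliomas did not overlap in this ratio, and the culture lay above all 6; the ratio was computed after the levels had been seen and has no test.

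Foxm1, the transcription factor that drives many of the other genes, was low in PDGF-B replicate 2 as well. It stood at 92.0, 17.2 and 89.4 CPM under the PDGF-B label, at 58.3, 48.8 and 101 CPM under the EGFRvIII label and at 189 CPM in the culture.

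Among the mitotic kinases, Plk1, which acts at centrosomes, kinetochores and the midzone, stood at 34.1, 6.64 and 39.8 CPM, then at 25.4, 28.3 and 38.7 CPM, with 112 CPM in the culture. Aurkb, the kinase of the chromosomal passenger complex, stood at 26.0, 3.33 and 29.5 CPM, then at 19.0, 16.3 and 35 CPM, with 78.5 CPM in the culture. EGFRvIII replicate 3 was the highest glioma for Aurkb, and the order of the other gliomas crossed the labels. Melk, a kinase that is abundant in dividing progenitors, stood at 21.9, 1.97 and 23.5 CPM, then at 13.9, 14.8 and 22.7 CPM, with 64.8 CPM in the culture. It had the widest spread under the PDGF-B label, the highest being 11.9 times the lowest. Aurka (the centrosomal Aurora kinase), Ttk (the checkpoint kinase MPS1) and Pbk (a kinase active in mitosis) were lowest in PDGF-B replicate 2, at 3.51, 5.45 and 8.54 CPM. Their highest gliomas were at 20.4, 37.8 and 64.9 CPM and their culture levels at 56.9, 93.3 and 77.9 CPM.

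Genes of the spindle checkpoint and of its target showed the same order. Bub1, a checkpoint kinase, stood at 39.9, 4.55 and 41.8 CPM, then at 29.5, 30.0 and 40.4 CPM, with 114 CPM in the culture. Mad2l1, which holds CDC20 inactive, stood at 48.5, 11.5 and 44.1 CPM, then at 32.0, 35.4 and 44.2 CPM, with 116 CPM in the culture. Its spread under the PDGF-B label was the narrowest of the 33, the highest being 4.2 times the lowest, and still left replicate 2 apart. Cdc20, the activator of the APC/C, stood at 38.8, 6.05 and 40.7 CPM, then at 34.6, 38.6 and 37.7 CPM, with 80.3 CPM in the culture. Ube2c, an enzyme that hands ubiquitin to APC/C substrates, stood at 37.4, 6.01 and 37.9 CPM, then at 24.9, 43.4 and 38.5 CPM, with 116 CPM in the culture. For Ube2c the highest glioma was EGFRvIII replicate 2, which was the lowest of its label for Kif23, Cenpf and Mki67. Bub1b, which encodes BUBR1, ranged from 4.3 CPM in PDGF-B replicate 2 to 43.8 CPM in PDGF-B replicate 3 and was at 109.6 CPM in the culture.

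Cenpf, a large kinetochore protein, stood at 165, 19.0 and 132 CPM, then at 149, 84.3 and 118 CPM, with 266 CPM in the culture. Cenpe (a kinetochore motor) and Cenpa (the histone H3 variant of centromeres) were at 11.8 and 6.45 CPM in PDGF-B replicate 2, at most 97.3 and 45.9 CPM in another glioma and at 203 and 94.3 CPM in the culture. Kif11, the motor that pushes spindle poles apart, stood at 49.0, 6.09 and 45.8 CPM, then at 33.1, 30.2 and 44.2 CPM, with 117 CPM in the culture. The gliomas other than PDGF-B replicate 2 lay between 30.2 and 49.0 CPM for Kif11. Hmmr, a spindle and centrosome protein, stood at 56.0, 6.85 and 46.1 CPM, then at 36.1, 31.4 and 37.2 CPM, with 158 CPM in the culture. Aspm, which focuses spindle poles and is linked to brain size, stood at 153, 31.0 and 97.4 CPM, then at 114, 65.2 and 92.6 CPM, with 184 CPM in the culture. Aspm had the least difference between PDGF-B replicate 2 and the rest: the lowest other glioma was 2.1 times its level, and the culture was 1.2 times the highest glioma. Kif2c (a microtubule-depolymerising kinesin), Tpx2 (the activator of Aurora A) and Nusap1 (a microtubule-bundling protein) were at 5.12, 21.2 and 11.8 CPM in PDGF-B replicate 2 and at 71.3, 283 and 207 CPM in the culture. Their highest gliomas were at 33, 124 and 72 CPM.

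Among transcripts of chromosome proteins, Mki67, the Ki-67 antigen that coats mitotic chromosomes and is stained as a proliferation marker, stood at 512, 64.6 and 554 CPM, then at 425, 285 and 530.2 CPM, with 1361 CPM in the culture. It was the highest of the 33 genes in every library, per kilobase as well, at 50.9, 6.42 and 55 CPM per kilobase under the PDGF-B label, 42.2, 28.3 and 52.7 under the EGFRvIII label and 135 in the culture. Top2a, the topoisomerase that untangles sister DNA, stood at 243, 26.4 and 295 CPM, then at 202, 214 and 271 CPM, with 766 CPM in the culture. Its lowest other glioma was 7.65 times the level of PDGF-B replicate 2, the widest such gap of the 33. Ncapg, a condensin subunit, was at 7.64 CPM in PDGF-B replicate 2, at most 51.4 CPM in another glioma and at 123 CPM in the culture.

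At the spindle midzone, where the cell is cut, Birc5 (survivin, of the chromosomal passenger complex) stood at 31.3, 5.88 and 32.8 CPM, then at 20.5, 20.0 and 34.5 CPM, with 93.1 CPM in the culture. Kif23, the kinesin of the centralspindlin complex, stood at 53.2, 6.0 and 42.2 CPM, then at 34.1, 18.7 and 47.4 CPM, with 127 CPM in the culture. EGFRvIII replicate 2 was second lowest for Kif23, and the highest of the EGFRvIII label was 2.53 times the lowest, the widest spread there. Kif20a (a midzone kinesin), Prc1 (a midzone microtubule crosslinker) and Racgap1 (the partner of KIF23) were at 9.13, 18.1 and 25.7 CPM in PDGF-B replicate 2 and at 118, 276 and 248 CPM in the culture. Their highest gliomas were at 54.4, 115 and 132 CPM.

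To describe each glioma without a test, its log2 CPM was set against the mean of the other 2 gliomas of its label. For PDGF-B replicate 2 the median over the 33 genes was -2.67, while the median over all genes was 0.01. All 33 were at least 2-fold lower and 31 at least 4-fold lower, shares that were 8.94% and 3.04% over all genes. The difference ran from -3.49 for Melk, -3.34 for Top2a and -3.25 for Bub1b to -2.0 for Mad2l1 and -1.98 for Aspm. Every role was low: the median was -3.15 for the 3 checkpoint genes, -3.04 for the 3 chromosome genes, -2.69 for the 6 kinases, -2.60 for the cyclins and CDK1 and -2.53 for the 5 midzone genes. The other gliomas of the label had medians of 1.34 (replicate 1) and 1.27 (replicate 3), which contain replicate 2 in their reference.

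Under the EGFRvIII label the medians were -0.14, -0.23 and 0.38, and they depended on the scaling: replicate 2 was at -0.85 and replicate 3 at 0.92 with libraries centred on constitutive genes, and replicate 2 at -0.51 with library totals. Replicate 1 ran from -0.71 for Ube2c to 0.58 for Cenpf, replicate 2 from -1.10 for Kif23 to 0.49 for Ube2c, and replicate 3 from -0.45 for Ccnb2 to 0.99 for Aurkb. Kif23 in replicate 2 was the only value at least 2-fold lower in this group. Over all genes, 5.62%, 12.5% and 3.49% were that low in replicates 1, 2 and 3. The median standard deviation of the 33 genes over replicates was 1.55 on the log2 scale under the PDGF-B label, against 0.27 over all genes. Centred on constitutive genes, these were 1.63 and 0.30. Under the EGFRvIII label it was 0.27, against 0.39 over all genes, but 0.61 against 0.52 when centred on constitutive genes, so whether mitotic genes varied less than a typical gene there turned with the scaling.

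**Figure D3:**
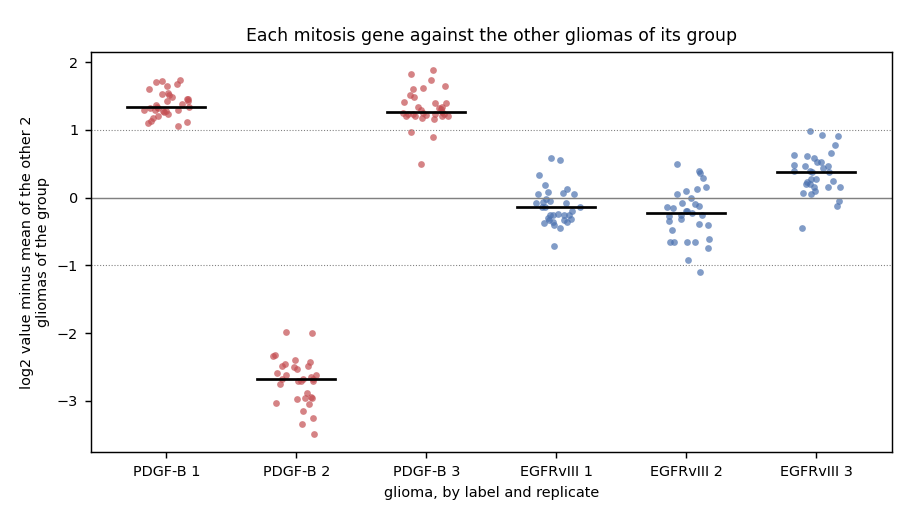
Difference of each mitotic gene's log2 CPM from the mean of the other 2 gliomas of its label, with 1 column per glioma. All 33 genes in PDGF-B replicate 2 lie at -1.98 or lower, while the EGFRvIII columns lie between -1.10 and 0.99 on the deposited scaling.

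The low level in PDGF-B replicate 2 reached well past the 33 genes. Of 37 other kinetochore and centromere genes, 27 were at least 2-fold lower there than in the other 2 gliomas of its label, with a median of -2.51. So were 18 of 22 further spindle and cytokinesis genes (median -2.60), 8 of 11 entry kinases and phosphatases (-2.23) and 10 of 16 condensin and cohesin genes (-1.84). Of 37 DNA replication and S phase entry genes, 35 were, with a median of -1.97. Mcm6, a subunit of the replicative helicase, stood at 63.3, 8.97 and 80.4 CPM under the PDGF-B label, 107, 45.1 and 93.1 CPM under the EGFRvIII label and 183 CPM in the culture.

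Lists of cell cycle regulators that are less tied to the division phase had smaller medians. Only 1 of 17 APC/C genes was at least 2-fold lower in PDGF-B replicate 2 (median -0.18), and that 1 was Fbxo5, an inhibitor of the complex that is made in cycling cells, at 14.3, 4.2 and 17.3 CPM. Anapc5, whose promoter is printed above, stood at 185, 163 and 212 CPM, then at 165, 186 and 191 CPM, with 265 CPM in the culture. Of 19 MuvB, Myb and E2F regulators, 6 were at least 2-fold lower (median -0.37). E2f1, an activator of S phase genes, stood at 9.64, 0.848 and 9.94 CPM and Mybl2, which encodes B-MYB, at 13.5, 2.52 and 20.6 CPM under the PDGF-B label. Rbl2, the p130 protein found on these promoters in resting cells, stood at 74.8, 83.6 and 57.0 CPM there. None of 10 constitutive genes was 2-fold lower (median 0.05).

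Other measures of PDGF-B replicate 2 stood as follows, and their part in its low mitotic level was not tested. The oligodendrocyte precursor markers summed to 12936, 18993 and 10195 CPM in replicates 1, 2 and 3, highest in replicate 2, and 3 of the 10 were at least 2-fold higher there. Of all 17422 genes, 595 were at least 2-fold higher and 1558 at least 2-fold lower in replicate 2. For replicate 3 these counts were 2092 and 873, and the marker counts here are to be read beside them. Microglia markers, at 843 CPM in replicate 2, lay between the 616 and 2486 CPM of the other 2, and 12 neural stem markers summed to 1176, 980 and 2463 CPM. Of these 12, 4 were at least 2-fold lower in replicate 2 (Vim at -2.29, Nes at -2.19, Sox9 at -1.29 and Prom1 at -1.16 on the log2 scale, named after their values were seen), and 0 at least 2-fold higher. Mature neuron markers summed to 272, 327 and 177 CPM, the 9 myelin markers measured to 554, 753 and 686 CPM, and the 7 endothelial markers measured to 4.66, 12.5 and 19.5 CPM. Astrocyte markers summed to 2131, 2481 and 1885 CPM and red cell markers to 10.3, 7.1 and 0.955 CPM. Slc1a2 alone stood at 1469, 1619 and 656 CPM of the astrocyte sum. By median difference from the other 2 gliomas, the 8 astrocyte markers were at -1.43, -0.28 and 2.21 on the log2 scale. In replicate 2, 2 of them were at least 2-fold lower and 1 higher, and in replicate 3, 2 were lower and 5 higher. The CDK inhibitor Cdkn1a, which encodes p21, stood at 26.0, 28.6 and 69.2 CPM and Cdkn1b, which encodes p27, at 141, 155 and 165 CPM. In replicate 2 neither was above both of the others. Over the 7 CDK inhibitors listed, the median difference in replicate 2 was -0.53 on the log2 scale. Of these, 1 was at least 2-fold lower there, Cdkn2c at 54.1, 14.0 and 46.4 CPM, and 0 at least 2-fold higher.

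**Figure D4:**
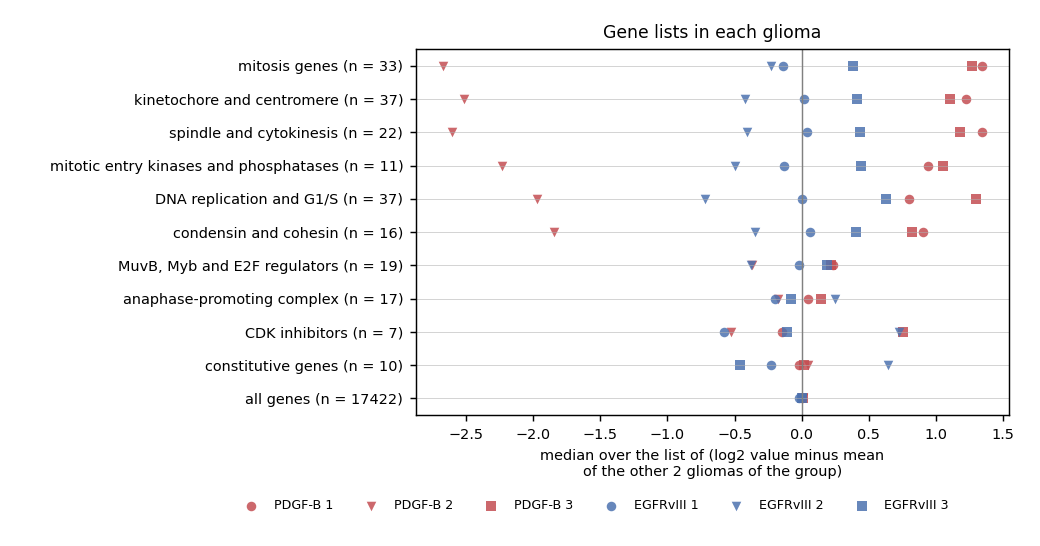
Median difference of log2 CPM from the mean of the other 2 gliomas of its label, by gene list, with 1 point per glioma. In PDGF-B replicate 2 the mitotic genes are at -2.67 and the replication genes at -1.97, while the APC/C genes are at -0.18 and the constitutive genes at 0.05.

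Beneath the shift in level, the order of the genes was kept in part. Spearman's rho of CPM per kilobase over the 33 genes was 0.9 between PDGF-B replicates 1 and 2, 0.958 between 1 and 3, and from 0.723 (PDGF-B replicate 2 and the culture) to 0.959 over all pairs of libraries, which share gene lengths and normalization and are given as a description. Mki67 made up 18.77%, 15.98% and 20.68% of the summed CPM of the 33 genes under the PDGF-B label, 20.42%, 15.63% and 20.97% under the EGFRvIII label and 20.63% in the culture. Aspm took 5.63%, 7.66% and 3.64%, then 5.48%, 3.58% and 3.66%, with 2.78% in the culture, so its share was largest in the library where the group was lowest and smallest in the culture. Mad2l1 took 2.85% in PDGF-B replicate 2 and from 1.54% to 1.94% in the other libraries.

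The first comparison asked how the gliomas labelled PDGF-B differ from those labelled EGFRvIII. None of the 33 mitotic genes passed the test (limma on log2 CPM, Benjamini-Hochberg adjusted over all genes, threshold 0.05), while 2.63% of all genes were called lower and 0.717% higher in the gliomas labelled PDGF-B. None had an unadjusted p under 0.05, the smallest being 0.151, and limma-voom on recovered reads also called 0. All 33 differences were below 0, with a median of -0.56 against -0.00 over all genes. They ran from -1.11 ± 0.69 (SE, n = 3 and 3) for Cdk1, limma adjusted p = 0.462, to -0.19 ± 0.56 for Aspm, limma adjusted p = 0.875. Mean levels were 26.3 ± 18.2 CPM (SD, n = 3) and 42.2 ± 1.17 CPM (SD, n = 3) for Cdk1, 377 ± 271 and 413 ± 123 CPM for Mki67, and 49.8 ± 33.5 and 63.4 ± 9.87 CPM for Ccnb1. Cdk1 was the only gene whose groups did not overlap, 1 of 33, against 22.9% of all genes.

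The sign of this comparison was set by 1 library. Without PDGF-B replicate 2 the median turned to 0.35, with 32 of 33 differences above 0 and Cdk1 still below it at -0.20 ± 0.20. The largest were Cenpe at 0.67 ± 0.33, Kif23 at 0.60 ± 0.40 and Hmmr at 0.54 ± 0.22, and again none was called. With 2 against 3 gliomas only 0.0402% of all genes were called in either direction. The next count is a description with no test, on the deposited scaling and with the library known to be low set aside. PDGF-B replicates 1 and 3 both lay above all 3 gliomas labelled EGFRvIII for 14 of the 33 genes, against 13.5% of all genes. The 14 were Ccnb2, Bub1b, Cdc20, Kif11, Kif20a, Tpx2, Cenpe, Ccna2, Kif2c, Ttk, Prc1, Racgap1, Ncapg and Hmmr. Centring on constitutive genes moves EGFRvIII replicate 3 by 0.336 and PDGF-B replicate 1 by -0.004 on the log2 scale. The count of 14 therefore depends on the scaling, and it was not made on the centred values. Microglia markers were lower under the PDGF-B label (18 of the 20 called, and 0 without PDGF-B replicate 2), as the sums given earlier show, and their part in the mitotic levels, which are shares of all RNA, was not tested. No gene of the 7 other lists of cell cycle machinery passed in this comparison, and Cdkn2a was the only CDK inhibitor that did, at -2.31 ± 0.39, limma adjusted p = 0.0318. Its call held without PDGF-B replicate 3 and ended when any other glioma was left out. The call also ended with replicate number added to the fit as a block (limma adjusted p = 0.0855).

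The other comparisons set each glioma group against the culture, in which growth in the brain, growth factors in the medium and time change together and cannot be told apart. By the labels, oncogene and Ink/Arf genotype change as well for the gliomas labelled EGFRvIII. By the Pdgfb levels given earlier, the gliomas labelled PDGF-B would be the group that differs from the culture in oncogene. These parts cannot be told apart either. Both comparisons use the same culture library. Its spread is taken to equal that of the gliomas because it has no replicate. Every mitotic gene was highest in the culture, by 1.2 times the highest glioma for Aspm and Pbk to 3.22 times for Cdk1, with a median of 2.4 times. Against the gliomas labelled PDGF-B the median log2 difference, gliomas minus culture, was -2.28, with 0.04 over all genes. It ran from -2.84 ± 0.97 (SE, n = 3 and 1) for Cdk1, limma adjusted p = 0.115, to -1.11 ± 0.86 for Ccnb2, limma adjusted p = 0.433. None of the 33 was called, with 1.73% of all genes called lower and 7.73% higher. Unadjusted p was under 0.05 for 10 of the 33, and limma-voom also called 0.

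Against the gliomas labelled EGFRvIII the median was -1.73, with 0.01 over all genes. Hmmr had the largest difference at -2.18 ± 1.03, limma adjusted p = 0.254, and Ccnb2 the smallest at -0.76 ± 0.86, limma adjusted p = 0.655. The test called 0 of the 33, of which 0 passed an unadjusted p of 0.05 (3 with limma-voom, which also called 0), while 1.34% of all genes were called lower and 8.2% higher. Mki67 differed from the culture by -2.37 ± 1.12 under the PDGF-B label and by -1.77 ± 1.12 under the EGFRvIII label. Ccnb1 differed by -2.42 ± 0.94 and -1.68 ± 0.94, and Cdc20 by -1.91 ± 0.97 and -1.12 ± 0.97. The larger differences under the PDGF-B label rested on replicate 2. Without it they were -1.35 for Mki67, -1.55 for Ccnb1 and -1.01 for Cdc20, each smaller than under the EGFRvIII label.

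**Figure D5:**
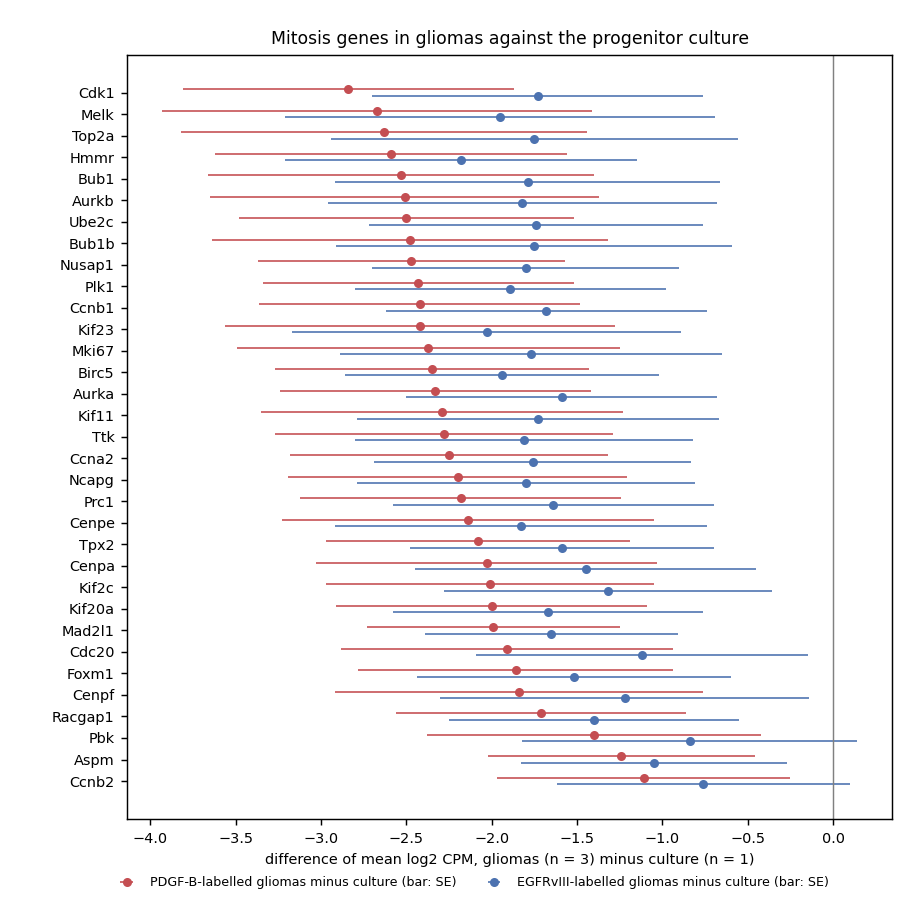
Difference of mean log2 CPM between each glioma group (n = 3) and the culture (n = 1) for the 33 mitotic genes, with the standard error as a bar. All 66 points lie below 0, from -2.84 for Cdk1 to -0.76 for Ccnb2, and the PDGF-B point lies left of the EGFRvIII point for every gene. Without PDGF-B replicate 2 that order turned for 32 of the 33 genes, all but Cdk1.

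These tests pool the spread of all gliomas, so PDGF-B replicate 2 widened the errors of both. The fit without that library is singled out here with its low level for these same genes known. Its calls and p-values are therefore a description. With any other glioma left out, 0 of the 33 were called in either comparison. Without PDGF-B replicate 2, 26 of the 33 genes were called lower in the gliomas labelled EGFRvIII than in the culture. Of all genes, 1.87% were called lower there. The differences were the same as before and the errors smaller. Hmmr was at -2.18 ± 0.27 (limma adjusted p = 0.00527), Cdk1 at -1.73 ± 0.25 (limma adjusted p = 0.00915) and Bub1b at -1.75 ± 0.27 (limma adjusted p = 0.0111). The 7 not called were Aspm, Aurkb, Ccnb2, Cenpf, Foxm1, Kif23 and Pbk. Against the remaining 2 gliomas labelled PDGF-B, 10 genes were called lower, with 0.867% of all genes called lower, and the median was -1.35. Those were Aurka, Bub1, Bub1b, Ccnb1, Cdk1, Hmmr, Nusap1, Plk1, Prc1 and Top2a, led by Cdk1 at -1.93 ± 0.27 (limma adjusted p = 0.0127). Ccnb2, at -0.34 ± 0.34, differed by no more than its error.

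The rest of the division machinery had the same order. The culture lay above all 6 gliomas for 37 of 37 kinetochore and centromere genes, 37 of 37 replication genes, 20 of 22 spindle and cytokinesis genes, 15 of 16 condensin and cohesin genes and 10 of 11 entry kinases and phosphatases. It did so for 10 of 17 APC/C genes, 13 of 19 MuvB, Myb and E2F regulators and 1 of 10 constitutive genes. Over all genes the share was 24.0%. Neural stem markers had the same order, with 10 of 12 highest in the culture. They summed to 8036 CPM there, against 980 to 2573 CPM in the gliomas. Their part in the mitotic difference was not tested.

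A few genes of these lists passed with all libraries in the fit. Over all genes, 1.73% were called lower and 7.73% higher in the gliomas labelled PDGF-B than in the culture. For the gliomas labelled EGFRvIII these shares were 1.34% and 8.2%. The counts below are few and are to be read beside these shares. In the gliomas labelled PDGF-B, Mis12 and Zwint, which link kinetochores to their outer layer, were lower than in the culture, at -1.32 ± 0.32 (limma adjusted p = 0.0436) and -1.02 ± 0.24 (limma adjusted p = 0.0431), 2 of 37. Tfdp1, the partner of E2F proteins, was lower at -1.11 ± 0.25 (limma adjusted p = 0.035), and Rbl2 was higher at 1.07 ± 0.27 (limma adjusted p = 0.0494), the other 17 of that list of 19 not passing. Ccne1, the cyclin of S phase entry, was lower at -3.26 ± 0.80 (limma adjusted p = 0.0479), 1 of 37. In the gliomas labelled EGFRvIII, the cohesin subunit Smc1a was lower at -1.03 ± 0.23 (limma adjusted p = 0.0341), 1 of 16, and E2f5, a repressor E2F, at -1.03 ± 0.25 (limma adjusted p = 0.0458), 1 of 19. The spindle, entry kinase and APC/C lists had no call in either. Several of the genes called varied little among the gliomas: Zwint stood at 159, 166 and 156 CPM, then at 214, 228 and 177 CPM, with 324 CPM in the culture.

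None of these 7 calls held in all 6 fits that left out 1 glioma. Mis12, Tfdp1, Rbl2 and Smc1a passed only without PDGF-B replicate 3 or EGFRvIII replicate 2, Zwint and E2f5 only without EGFRvIII replicate 2, and Ccne1 only without PDGF-B replicate 2 or 3. Most of them were also lost with libraries centred on constitutive genes and with limma-voom. Without PDGF-B replicate 2, in turn, genes called lower in the gliomas labelled EGFRvIII than in the culture numbered 18 of 37 in the kinetochore list, 13 of 22 in the spindle list, 12 of 37 in the replication list, 4 of 16 in the condensin and cohesin list and 2 of 11 in the entry list. No APC/C gene was called. That fit, too, was singled out with the low level of PDGF-B replicate 2 known. Of all genes, 1.87% were called lower in it. With the libraries centred on constitutive genes, calls over all genes in the PDGF-B comparison with the culture went from 1346 higher and 301 lower to 1295 higher and 103 lower.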

How the data were processed

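Sorted cells of 6 gliomas and 1 culture were profiled by RNA sequencing, with STAR, edgeR and mm10 named in the submitters' processing notes. The deposited values are log2 CPM per gene and library, per the file headers, with a floor that fits a prior count of 2. The counting tool and scaling were not given in the sources used here, and it was not stated whether poly(A) selection or rRNA removal was used. CPM was obtained by taking the floor back out. Recovered reads were multiples of a hundredth of a read, 36.059% to 38.091% of values being whole within 0.02, so they are estimates. No test that needs whole counts was run, and limma-voom on the recovered reads was used only as an alternative fit. Ensembl IDs were matched to mouse symbols (GENCODE vM21 and a gene name table), 17247 of 17422, with 175 unmatched. Exon lengths come from that annotation.

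Glioma groups were compared by limma 3.58.1 in R 4.3.3, with trended, robust moderation, on the deposited log2 CPM of 6 gliomas (4 residual degrees of freedom), and each group against the culture by a fit to the 7 libraries together (4 residual degrees of freedom). P-values were adjusted by Benjamini-Hochberg over 17422 genes. The fit was also tested on simulated data in which each gene had the same spread in every library. That setting held no single low library, so it does not cover the case of PDGF-B replicate 2. A p-value measures only the spread between these libraries. Members and the 18 other gene lists were chosen with earlier results of these data known. Every member is named, and levels per library are given for a fixed set and for members at the ends of a comparison. Other genes are given only where called (at most 3 per list) or as examples chosen after their values were seen. These examples are Mcm6, Fbxo5, Anapc5, E2f1, Mybl2, Cdkn1a, Cdkn1b, Cdkn2c and Slc1a2. Correlations between equal replicate numbers showed no pairing but cannot exclude it, and the main fits used none. Endothelial Tek, Emcn, Ly6c1 and Slco1a4, Opalin and Hbb-bt were among the listed markers but not among the genes measured.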

Additional observations from a re-analysis of the deposited data

How the results depend on the processing

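In the comparison of labels, leaving out 1 glioma in turn moved the median difference of the 33 genes from -1.01 to 0.35, above 0 only without PDGF-B replicate 2. The single genes ran from -1.18 to 0.14 for Ccnb1, -0.75 to 0.46 for Foxm1, -1.01 to 0.28 for Plk1, -1.24 to 0.32 for Aurkb, -1.26 to 0.11 for Cdc20, -1.28 to 0.31 for Bub1, -1.19 to 0.37 for Cenpf, -1.08 to 0.42 for Kif11, -1.50 to 0.24 for Top2a, -1.14 to 0.41 for Mki67, -0.83 to 0.40 for Birc5, -0.97 to 0.60 for Kif23, -0.71 to 0.33 for Mad2l1 and -0.68 to 0.47 for Aspm. Called members ran from 0 to 10 of 33 for PDGF-B against the culture and 0 to 26 for EGFRvIII, above 0 only without PDGF-B replicate 2. Over all genes, leaving out 1 glioma gave 2 to 974 lower and 2 to 308 higher calls between labels (main 458 and 125), 75 to 654 and 779 to 1655 for PDGF-B against the culture (301 and 1346), and 115 to 352 and 943 to 1678 for EGFRvIII (234 and 1429). Limma-voom gave 207 lower and 346 higher, and 223 and 498, in the comparisons with the culture. With the replicate block, the median between labels stayed at -0.56 with 0 members called, and calls over all genes fell to 13 lower and 5 higher, while Cdkn2a, at -2.31 with limma adjusted p = 0.0855, was no longer called. The correlations of deviations between equal replicate numbers were 0.175, -0.036 and -0.08. Between unequal numbers they ran from -0.25 to 0.207. They showed no pairing by number, and they cannot exclude a shared preparation. Centring on constitutive genes moved the median of all genes by 0.10, 0.27 and 0.15 in the 3 comparisons, and the members' median deviation to -0.85 in EGFRvIII replicate 2 and 0.92 in replicate 3. With library totals the former was -0.51. The direction of the members' median kept its sign in all other alternatives, namely a pseudocount of 1, a filter of 1 CPM in 3 libraries, library totals and limma-voom. Over the alternatives, values of single named genes kept direction and call in 546 instances, lost the call in 58 (genes of other lists), gained it in 16 (without PDGF-B replicate 2) and turned sign in 14. The fewest reads behind any mitotic gene's value were 65, so depth limits mainly Melk in PDGF-B replicate 2.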
